A study of Homo sapiens and Mus musculus with 4 samples.

Results

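TXNIP, its arrestin relatives and the main glucose transporters form a set of 8 genes, namely TXNIP, ARRDC1, ARRDC2, ARRDC3, ARRDC4, MLXIP, SLC2A1 and SLC2A3. They were taken by name from a table of 60736 genes, as human genes (of 32738) in the human libraries and as mouse genes of the same symbol (of 27998) in the mouse libraries. TXNIP was chosen by its measured ratio between the human lines, and the other genes were listed with values of these libraries known. The human ratios are therefore a description of chosen genes, with nothing to test them against. All 8 symbols were found in both species.

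The libraries came from 4 cell lines, each with 1 stranded library of messenger RNA. Jurkat, used by the study as a CD4 T cell, derives from human T-cell leukaemia and was grown in RPMI medium, as was EL4, which derives from a mouse T-cell lymphoma and also received 2-mercaptoethanol. TALL104, a CD8 line from human leukaemia, was grown in IMDM with interleukin-2, and IVA12, which is a B-lineage hybridoma of mouse, in DMEM. All media held serum, and no allele is given for any line. Human lines were compared with each other, and so were mouse lines. With 1 library per line there was no spread between cultures to set a difference against and no test was made, and the line, its medium and interleukin-2 cannot be told apart.

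TXNIP is an alpha-arrestin, a family of adaptor proteins that bind membrane proteins and recruit ubiquitin ligases of the NEDD4 family to them. TXNIP binds thioredoxin and promotes the removal of the glucose transporters GLUT1 and GLUT3, products of SLC2A1 and SLC2A3, from the cell surface. Its transcription is induced when glucose phosphates build up, through MondoA, the product of MLXIP, which binds paired E-box-like half-sites together with its partner MLX. ARRDC4 is a further known target of MondoA. In lymphocytes, GLUT1 and GLUT3 carry most glucose uptake, and TXNIP is known as a gene of quiescent cells.

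The promoters are shown because the motif of MondoA can be looked for in them. RefSeq promoters of GRCh38.p14 were given for 7 of the 8 human genes, with 10 entries in all. SLC2A3 had no entry, and mouse promoters were not used here. Each entry runs from 250 bases before to 50 bases after a transcription start. The search was for 2 half-sites CACGNG in the same direction separated by 5 bases, and for the E-box CACGTG. The E-box reads the same on both strands. Both motifs were sought on both strands, and the E-box is itself a match to the half-site letters. Pairs of half-sites in opposite directions or with another gap were not sought. The paired half-sites were found in 20 of 35116 human promoters, or 0.0570%, and the E-box in 7.26%. Counted by gene, the shares were 0.0732% and 8.77% of 27305 genes. Among the 7 genes with an entry, paired half-sites of this form were found in TXNIP alone, from -88 to -72 of its first promoter. The E-box was found in ARRDC4 alone, from -210 to -205. The 250 bases before each start are given 5′ to 3′ with these letters in capitals. The TXNIP sequence lies at chr1:145996580-145996829 on the minus strand of GRCh38.p14. The same letters stand on the plus strand of GRCh37, at chr1:145438240-145438489, and end 1 base before the annotated start of the gene. The ARRDC4 sequence lies at chr15:97960453-97960702 on the plus strand of GRCh38.p14. These matches describe the letters in these windows and are not binding sites shown by these data.
TXNIP: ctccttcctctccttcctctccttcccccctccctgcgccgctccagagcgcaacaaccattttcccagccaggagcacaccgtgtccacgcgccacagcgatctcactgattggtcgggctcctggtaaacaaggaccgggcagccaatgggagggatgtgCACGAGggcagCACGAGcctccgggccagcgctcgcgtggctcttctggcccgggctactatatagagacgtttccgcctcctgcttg
ARRDC4: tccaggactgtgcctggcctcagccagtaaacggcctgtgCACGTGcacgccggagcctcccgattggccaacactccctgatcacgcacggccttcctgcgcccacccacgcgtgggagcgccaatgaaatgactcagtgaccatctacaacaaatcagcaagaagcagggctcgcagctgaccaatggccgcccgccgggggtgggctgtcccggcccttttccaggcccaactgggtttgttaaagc

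Levels are given as FPKM, fragments divided by the length of the gene and by the depth of the library, which can be compared between genes. The reads behind each value were recovered from the table, and the intervals in parentheses are exact 95% Poisson intervals of those reads. They cover counting error only. The library totals inferred from the FPKM ran from 25286728 to 34783047 and need not equal the reads sequenced. Ratios on the log2 scale are log2 ratios of FPKM + 1, with Jurkat over TALL104 and EL4 over IVA12. They are smaller than the plain FPKM ratios for low genes. A gene was counted as tested with at least 1 FPKM in either line, and as different past 1.5-fold on the FPKM + 1 scale. Medians of lists include genes with 0 reads in both lines, whose log2 ratio is 0.

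The markers of the lineages matched the labels in most respects. The 7 T cell marker genes summed to 840 FPKM in TALL104, 964 in Jurkat, 626 in EL4 and 11.9 in IVA12. CD3D, CD3E, CD3G, CD2, CD5, CD7 and LCK were each above 10 FPKM in both human lines. Cd3d, Cd3e, Cd3g, Cd2, Cd5 and Lck were above 10 FPKM in EL4 and below that in IVA12, where Cd2 was the highest at 9.995 FPKM. The 7 B and plasma cell marker genes summed to 1999 FPKM in IVA12, led by Jchain, Mzb1, Cd79b and Ms4a1, and to 0.873 FPKM in EL4. Within that list, Pax5 and Cd79a were nearly absent from IVA12, with 0.156 and 0.0543 FPKM. Among the T cell markers, Cd7 had 0 FPKM in EL4. The human B and plasma cell markers summed to 64.4 FPKM in Jurkat and 39.2 in TALL104, mostly from MZB1 and CD79A. Myeloid and erythroid markers summed to at most 1.65 FPKM in any line. Only 4 of the 5 myeloid and 3 of the 6 erythroid symbols were found among the mouse genes. LYZ, HBB, HBA1 and HBA2 were not, so lysozyme and globins were not covered in EL4 and IVA12. Epithelial markers summed to 70.4 FPKM in IVA12, of which Epcam gave 69.7, and to at most 1.85 FPKM in the other lines.

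TXNIP differed most of the 8 genes between the human lines. Its level was 0.309 FPKM in Jurkat (39 reads, 0.220 to 0.423) and 404 FPKM in TALL104 (41487 reads, 399.8 to 407.5). It was the 41st highest human gene in TALL104 and the 12834th in Jurkat. The plain FPKM ratio of TALL104 over Jurkat was 1305 (955 to 1836) and the log2 ratio was -8.27, the 4th most toward TALL104 of 12214 tested human genes. In bulk RNA, a lower share of cells with the transcript and less transcript per cell cannot be told apart. The gene carries the older identifier ENSG00000117289 in the table. Under its present identifier ENSG00000265972 it lies on chromosome 1 of hg19, 145438490 to 145442635, plus strand.

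The Jurkat level of TXNIP was close to that of the human gene in the IVA12 library and above that in the EL4 library. Human TXNIP had 0.103 FPKM in EL4 (12 reads, 0.0532 to 0.180) and 0.262 FPKM in IVA12 (24 reads, 0.168 to 0.389). The Jurkat level was 3.004 times that of EL4 (1.54 to 6.30) and 1.18 times that of IVA12 (0.693 to 2.05), so the interval against IVA12 includes 1. As a percentage of the TALL104 level, these values were 0.0766% in Jurkat, 0.0648% in IVA12 and 0.0255% in EL4. Genes of the other species held 0.175% of all FPKM in IVA12, 0.0379% in EL4 and 0.0474% in Jurkat. Mouse lines hold no human gene, so in IVA12 a value near that of Jurkat was found in a line without it. Whether the 39 reads of Jurkat come from Jurkat cells was not tested.

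The mouse gene Txnip was 7.72 FPKM in EL4 (775 reads, 7.18 to 8.28) and 94.5 FPKM in IVA12 (7464 reads, 92.4 to 96.7). IVA12 was the higher line, by a plain ratio of 12.2 (11.4 to 13.2) and a log2 ratio of -3.45, the 203rd most toward IVA12 of 10801 tested mouse genes. Txnip (ENSMUSG00000038393) lies on chromosome 3 of mm10, 96557957 to 96561883, plus strand. It overlaps the antisense gene Gm15441, which had 0 FPKM in EL4 and 0.0944 in IVA12. Across the 4 lines the level of TXNIP ran from TALL104 through IVA12 and EL4 to Jurkat, with no overlap of neighbouring counting intervals. The gene models of the species differ, so the order between species also depends on them. The same holds for the other genes where levels of all 4 lines are set side by side.

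**Figure D1:**
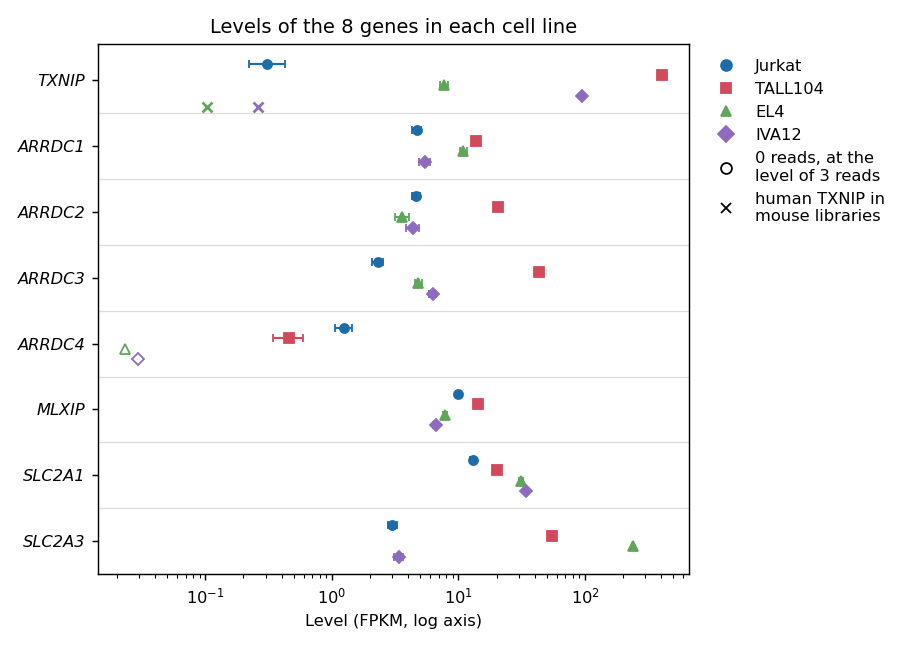
The level of each of the 8 genes in FPKM, on a log axis, in its own species' libraries. Points carry exact 95% Poisson intervals, open points stand at the level of 3 reads for genes with 0 reads, and crosses are human TXNIP in the mouse libraries. TXNIP spans 0.309 to 404 FPKM, and the Jurkat point lies beside the cross of IVA12 at 0.262 FPKM.

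The other alpha-arrestins of the human pair were higher in TALL104 with 1 exception. ARRDC1, which recruits ubiquitin ligases at the plasma membrane and drives budding of vesicles, had 4.67 FPKM in Jurkat (621 reads) and 13.9 in TALL104 (1501 reads), a plain ratio of TALL104 over Jurkat of 2.97 (2.70 to 3.26) and a log2 ratio of -1.39. ARRDC2, a less studied relative, had 4.58 and 20.7 FPKM (739 and 2718 reads), a plain ratio of 4.51 (4.16 to 4.90) and a log2 ratio of -1.96. ARRDC3, an adaptor in the endocytic route of beta-adrenergic receptors, had 2.30 and 43.7 FPKM (395 and 6108 reads), a plain ratio of 19.0 (17.1 to 21.1) and a log2 ratio of -3.76. The low line of each of the 3 genes was Jurkat. Of the tested human genes, 2.66% had a larger absolute log2 ratio than ARRDC3 and 25.9% a larger one than ARRDC1. ARRDC2 lies on chromosome 19 of hg19 (18111941 to 18124911, plus strand) and ARRDC3 on chromosome 5 (90664448 to 90679134, minus strand), and both are protein-coding. ARRDC1 (chromosome 9, 140500137 to 140509812, plus strand) overlaps ARRDC1-AS1 on the opposite strand, which had 7.79 FPKM in Jurkat and 7.11 in TALL104, and the strand setting of the counting is not given in the sources used here.

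ARRDC4 (chromosome 15 of hg19, 98503933 to 98517063, plus strand) was the exception and was low in both human lines. It had 1.24 FPKM in Jurkat (178 reads, 1.07 to 1.44) and 0.454 FPKM in TALL104 (53 reads, 0.340 to 0.594). The plain ratio of Jurkat over TALL104 was 2.74 (2.004 to 3.79), while the FPKM + 1 ratio was 1.54, just past the threshold. The mouse gene Arrdc4 had 0 reads in both EL4 and IVA12, where 3 reads would have given 0.0231 and 0.0294 FPKM. No fold can be given for it. ARRDC4 had its higher human level in Jurkat, where TXNIP had its lower one. The part of MondoA in the levels of either gene was not tested.

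The mouse relatives lay closer together. Arrdc1 had 10.95 FPKM in EL4 (884 reads) and 5.40 in IVA12 (343 reads), a plain ratio of EL4 over IVA12 of 2.03 (1.79 to 2.30) and a log2 ratio of 0.90. Its higher mouse line was thus the T-cell line. Arrdc2 had 3.58 FPKM in EL4 (268 reads) and 4.35 in IVA12 (256 reads), with a plain ratio of IVA12 over EL4 of 1.21 (1.02 to 1.45). Arrdc3 had 4.83 and 6.29 FPKM (972 and 995 reads), with a plain ratio of 1.30 (1.19 to 1.42). Both were within 1.5-fold. The counting intervals of ARRDC1 in Jurkat (4.31 to 5.05) and Arrdc1 in IVA12 (4.85 to 6.01) overlapped. Those of ARRDC2 in Jurkat (4.26 to 4.92) and Arrdc2 in IVA12 (3.83 to 4.91) did too. These intervals cover counting error only, and the gene models of the species differ, so no likeness of level is read from the overlaps. TXNIP made up 83.5% of the summed FPKM of the alpha-arrestins in TALL104 and 85.5% in IVA12, against 28.5% in EL4 and 2.35% in Jurkat. Without TXNIP the family summed to 79.7 FPKM in TALL104, 12.8 in Jurkat, 16.1 in IVA12 and 19.4 in EL4. TALL104 had the highest remainder.

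MLXIP (chromosome 12 of hg19, 122516628 to 122631894, plus strand), the gene of MondoA, was the most even of the 7 genes with reads in every line. It had 14.3 FPKM in TALL104 (5641 reads), 9.91 in Jurkat (4795 reads), 7.82 in EL4 (2094 reads) and 6.59 in IVA12 (1387 reads), so its highest level was 2.17 times its lowest. The plain ratio of TALL104 over Jurkat was 1.44 (1.39 to 1.501), and that of EL4 over IVA12 was 1.19 (1.11 to 1.27). On the FPKM + 1 scale the human ratio was 1.40, just within the threshold.

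The glucose transporters differed in how far they varied. SLC2A1, the gene of GLUT1, had 34.3 FPKM in IVA12 (3039 reads), 31.3 in EL4 (3526 reads), 20.3 in TALL104 (2416 reads) and 13.0 in Jurkat (1899 reads), a span of 2.64-fold. The plain ratio of TALL104 over Jurkat was 1.56 (1.47 to 1.66), and that of EL4 over IVA12 was 0.913 (0.869 to 0.958). SLC2A1 lies on chromosome 1 of hg19 (43391024 to 43424564, minus strand). On the FPKM + 1 scale the human ratio of 1.52 was just past the threshold, and the mouse pair was within it.

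SLC2A3, the gene of the high-affinity transporter GLUT3, had 3.01 FPKM in Jurkat (644 reads) and 54.7 in TALL104 (9555 reads), and 239 FPKM in EL4 (55590 reads) and 3.38 in IVA12 (619 reads). The low line of each species was Jurkat (2.78 to 3.25) and IVA12 (3.12 to 3.66). The plain ratio of TALL104 over Jurkat was 18.2 (16.8 to 19.7) with a log2 ratio of -3.80, and that of EL4 over IVA12 was 70.6 (65.3 to 76.6) with a log2 ratio of 5.77. SLC2A3 lies on chromosome 12 of hg19 (8071826 to 8171603, minus strand) and Slc2a3 on chromosome 6 of mm10 (122727809 to 122801640, minus strand). Slc2a3 was the 37th most toward EL4 of the tested mouse genes and the 166th highest mouse gene in EL4. In the human pair SLC2A3 and TXNIP had their higher level in the same line, TALL104, and in the mouse pair in different lines, Slc2a3 in EL4 and Txnip in IVA12. Reads of SLC2A3 can also fit SLC2A14, a near-identical paralog with 0.00516 FPKM in Jurkat and 0.209 in TALL104. Since the handling of multiply aligned reads is not given in the sources used here, the human values of both are uncertain by an unknown amount.

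The transporter with the higher level changed between the lines of each species. SLC2A3 exceeded SLC2A1 by 2.70-fold (2.58 to 2.83) in TALL104 and by 7.63-fold (7.37 to 7.90) in EL4. SLC2A1 exceeded SLC2A3 by 4.32-fold (3.94 to 4.73) in Jurkat and by 10.1-fold (9.30 to 11.1) in IVA12. Together they held 97.0% of the FPKM of the glucose transporter family in EL4, 94.8% in TALL104, 89.8% in IVA12 and 66.4% in Jurkat. The family summed to 278 FPKM in EL4, 79.1 in TALL104, 41.9 in IVA12 and 24.1 in Jurkat, and SLC2A3 accounts for most of the difference within each species.

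**Figure D2:**
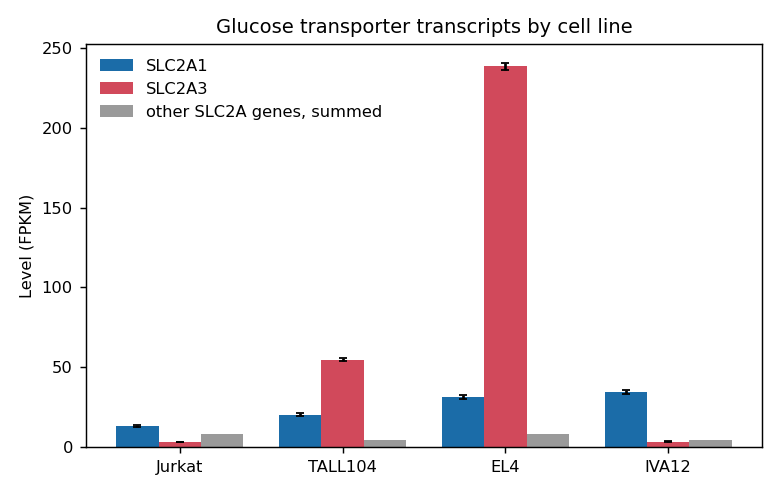
Levels of SLC2A1, SLC2A3 and the sum of the other SLC2A genes in FPKM, on a linear axis from 0, with exact 95% Poisson intervals on the single genes. SLC2A3 is the taller bar in TALL104 (54.7 FPKM) and EL4 (239 FPKM), and SLC2A1 in Jurkat (13.0 FPKM) and IVA12 (34.3 FPKM).

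Over the 8 genes, 6 were past 1.5-fold toward TALL104, where 28.4% of the tested human genes were, and 1 was past it toward Jurkat, where 34.2% were. These genes were chosen with the human values known, and nothing is read from the count. The median log2 ratio was -1.67, beside 0.10 over all tested human genes. Of the 8 mouse genes, 2 were past 1.5-fold toward EL4, where 23.8% of the tested mouse genes were, and 1 toward IVA12, where 26.5% were. With 7 of the 8 mouse genes at 1 FPKM or more, these shares are near the background, and the median log2 ratio was -0.06 beside -0.04 over all tested mouse genes. When the human libraries were scaled by the median ratio of expressed genes, a shift of 0.11 on the log2 scale, MLXIP moved past the threshold toward TALL104 and ARRDC4 fell within it, which gave 7 genes toward TALL104 and 0 toward Jurkat.

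**Figure D3:**
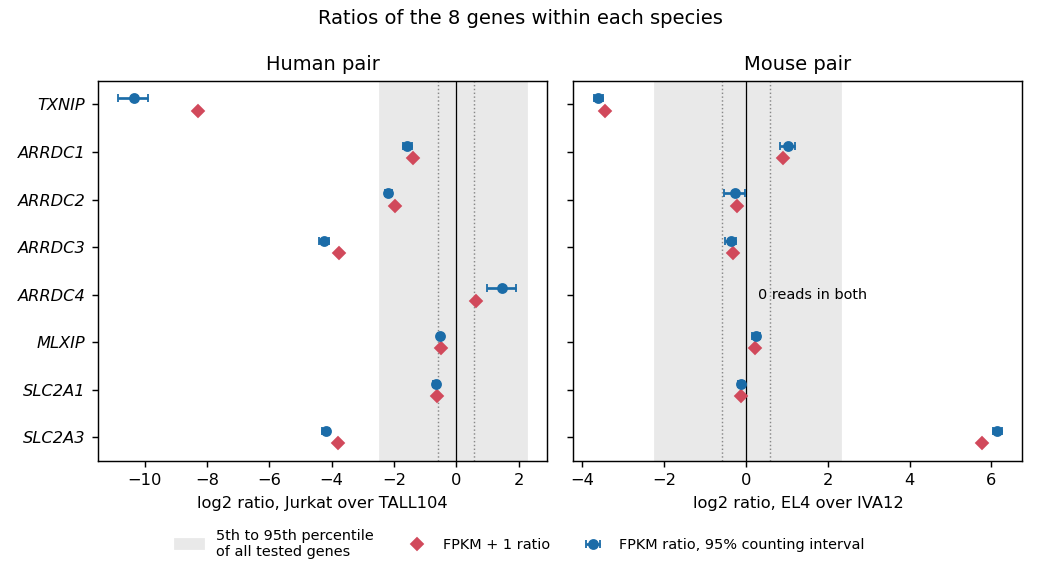
The log2 ratio of each of the 8 genes in the human and the mouse pair, as plain FPKM ratios with 95% counting intervals and as FPKM + 1 ratios. Dotted lines mark 1.5-fold, and the grey band holds the 5th to 95th percentile of all tested genes. TXNIP (-8.27), SLC2A3 (-3.80) and ARRDC3 (-3.76) lie outside the band in the human pair, and Slc2a3 (5.77) and Txnip (-3.45) lie outside it in the mouse pair.

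Lists of related genes were counted in the same way. Their counts stand beside the shares of all tested genes, 34.2% toward Jurkat, 28.4% toward TALL104, 23.8% toward EL4 and 26.5% toward IVA12. Those shares cover only genes with at least 1 FPKM in either line, while the list counts also hold genes below it in both. The arrestin family of 10 genes had 7 genes past 1.5-fold toward TALL104 and 1 toward Jurkat, with a median log2 ratio of -1.06. TXNIP, ARRDC1, ARRDC2 and ARRDC3 are among these 7 and ARRDC4 is the 1, so the count and the median largely repeat genes chosen with the human values known. Outside the 8 genes, the beta-arrestins, which uncouple receptors from G proteins, were higher in TALL104 too, with 8.78 FPKM in Jurkat and 15.9 in TALL104 for ARRB1 and 13.5 and 30.7 for ARRB2. Among the mouse genes, 2 of the 10 were toward EL4 and 2 toward IVA12, with a median of -0.04. Of the 10 genes, 8 human and 6 mouse ones had at least 1 FPKM in either line. Arrb2 had 17.1 FPKM in EL4 and 26.6 in IVA12, while Arrb1 had 9.25 and 1.19.

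The MondoA network of 11 genes holds MLX, the partner of MondoA, and the MAX, MXD and MYC proteins that share its binding sites. Of these, 3 were past 1.5-fold toward Jurkat and 2 toward TALL104, with a median log2 ratio of 0.02. MYC, the growth-promoting factor of the network, had 96.8 FPKM in Jurkat and 20.4 in TALL104, and MXD4, a repressor of the same sites, had 4.58 and 11.9. MYC was thus high where TXNIP was low. Among the mouse genes, 1 was toward EL4 and 4 toward IVA12, with a median of -0.53. Myc had 51.9 FPKM in EL4 and 195 in IVA12, and Mxd4 had 1.08 and 10.7, so both were higher in the line with more Txnip. MLX, MAX and MGA in the human pair and Mlx, Max and Mxi1 in the mouse pair were within 1.5-fold.

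The glucose transporter family had 2 of 14 human genes past 1.5-fold in each direction and 3 of 12 mouse genes past it toward EL4, with medians of 0.00 in both pairs. Only 6 of the 14 human and 5 of the 12 mouse genes had at least 1 FPKM in either line. These counts and medians thus include many genes that the shares of tested genes leave out. In both species, 3 or more genes of the family had 0 reads in each line. Apart from SLC2A1 and SLC2A3 no gene of the family reached 10 FPKM. Among the hexokinases, which trap glucose as its phosphate, HK1 had 11.3 FPKM in Jurkat and 26.4 in TALL104, and Hk1 had 42.6 in EL4 and 4.08 in IVA12. HK1 and SLC2A3 were thus higher in the same line in each species. HK2 had 11.1 and 7.52 FPKM, and Hk2 had 23.6 and 15.9, both within 1.5-fold. ADPGK, an ADP-dependent glucokinase, had 14.6 and 22.4 FPKM in the human lines, and Adpgk had 22.3 and 40.9 in the mouse lines. Of the 6 hexokinase genes, 0 were past 1.5-fold toward Jurkat, 2 toward TALL104, 1 toward EL4 and 1 toward IVA12, with medians of 0.02 and -0.02. Of the 6, 3 in each species had at least 1 FPKM in either line.

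The thioredoxin system, whose thioredoxin is the binding partner that named TXNIP, had 7 of 12 human genes past 1.5-fold toward Jurkat and 1 toward TALL104, with a median log2 ratio of 0.90. PRDX1, a peroxidase reduced by thioredoxin, had 469 FPKM in Jurkat and 67.0 in TALL104, PRDX3 had 83.5 and 21.3, and TXNRD1, the reductase of thioredoxin, had 114 and 58.7. TXN2, PRDX2 and PRDX4 were also past 1.5-fold, with log2 ratios of 1.17, 0.85 and 1.46. TXN itself, with 126 and 94.3 FPKM, was within it, as were PRDX5 and PRDX6. Of 12 mouse genes, 4 were past 1.5-fold toward EL4 and 1 toward IVA12, with a median of 0.24. Txn1 had 736 FPKM in EL4 and 380 in IVA12, Txnrd1 had 127 and 52.0, and Prdx1 had 462 and 298. Txn2, Prdx2, Prdx3, Prdx4, Prdx5 and Prdx6 were within 1.5-fold.

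The NEDD4 family list of 11 genes, which holds the ubiquitin ligases that bind alpha-arrestins and their adaptors, had 2 human genes past 1.5-fold toward Jurkat and 4 toward TALL104, with a median of -0.11. NDFIP2, a membrane adaptor that activates these ligases, had 1.77 FPKM in Jurkat and 37.3 in TALL104, and SMURF2 had 9.38 and 28.4. WWP1 and WWP2 had log2 ratios of -0.69 and -0.74. ITCH, a ligase that ubiquitinates TXNIP, had 23.7 and 27.4 FPKM and was within 1.5-fold, as was NDFIP1. In the mouse pair, 3 genes were toward EL4 and 1 toward IVA12, with a median of 0.26. Nedd4 had 46.9 FPKM in EL4 and 125 in IVA12, and Wwp1 had 15.1 and 4.29. Wwp2 had a log2 ratio of 0.62, and Itch and Ndfip1 were within 1.5-fold.

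The retromer and SNX27 return GLUT1 from endosomes to the cell surface. Of their 5 genes, 1 was past 1.5-fold toward Jurkat and 0 toward TALL104, with a median of 0.06, and 2 were past it toward EL4 and 0 toward IVA12, with a median of 0.56. The genes past it were VPS35 (19.9 and 12.3 FPKM), Vps35 (87.7 and 56.2) and Vps29 (10.96 and 6.59). VPS26A, VPS26B, VPS29, Vps26a, Vps26b and Snx27 were within it.

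**Figure D4:**
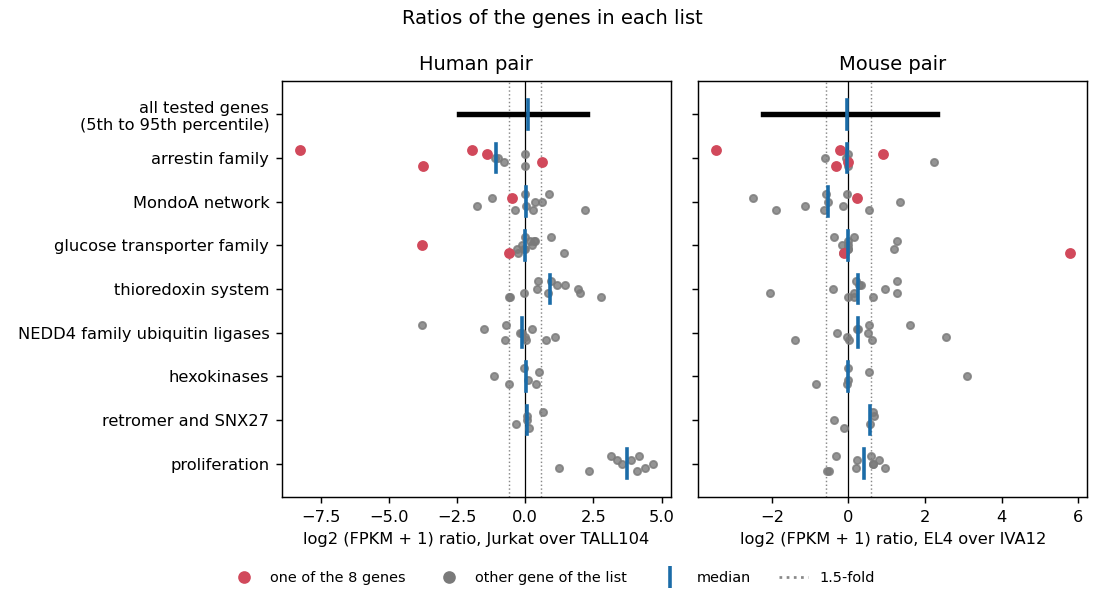
Log2 ratios of FPKM + 1 of each gene in 8 lists, in the human and the mouse pair, with the 8 genes in red and list medians as blue bars. The top row gives the median and the 5th to 95th percentile of all tested genes. The proliferation list has a human median of 3.72 and a mouse median of 0.40.

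Genes of proliferation also differed in the human pair. All 10 genes of that list, MKI67, TOP2A, CCNB1, CDC20, CDK1, BIRC5, TYMS, RRM2, MCM2 and PCNA, were past 1.5-fold toward Jurkat, with a median log2 ratio of 3.72 and sums of 1247 FPKM in Jurkat and 166 in TALL104. Of the 10 mouse genes, 4 were past it toward EL4, namely Cdc20, Cdk1, Rrm2 and Pcna, and Mki67, Top2a, Ccnb1, Birc5, Tyms and Mcm2 were within it. The sums were 1156 FPKM in EL4 and 888 in IVA12. The share of own-species FPKM on mitochondrially encoded genes was 20.6% in TALL104, 14.9% in Jurkat, 5.04% in EL4 and 4.79% in IVA12. The study describes TALL104 as difficult to culture, with slow growth and part of its cells not viable. The part of proliferation, of culture state or of the mitochondrial share in the levels of TXNIP and SLC2A3 was not tested.

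Genes like TXNIP were sought by the distance between their human and mouse log2 ratios and those of TXNIP, over 15553 symbols shared by the species. The 5 nearest were SLAMF7, a receptor of lymphocytes, LTB, a cytokine of the tumour necrosis factor family, CD44, a hyaluronan receptor, VAMP8, a protein of vesicle fusion, and LSP1, an actin-binding protein of leukocytes, at distances of 1.76, 2.22, 2.47, 2.52 and 3.08. SLAMF7 had 147 FPKM in TALL104, 0.162 in Jurkat, 24.7 in IVA12 and 0.00680 in EL4. CD44 had 76.4, 0.0257, 96.5 and 22.4 FPKM in the same order. Of the shared symbols, 574 were past 1.5-fold toward both TALL104 and IVA12, and 0 other symbols lay at least as far toward both as TXNIP. TXNIP was chosen by its human ratio, the 4th most toward TALL104, so this count of 0 was nearly fixed by the choice and nothing is read from it. The likeness rests on 2 ratios from 4 libraries.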

How the data were processed

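Bulk RNA sequencing libraries of Jurkat, TALL104, EL4 and IVA12 were compared within each species. The authors aligned the reads to a combined hg19 and mm10 reference with STAR 2.5.1b, counted them with featureCounts 1.6.3 and deposited FPKM, per the study's methods and processing notes. The gene lengths, the strand setting and the handling of multiply aligned reads are not given in the sources used here.

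Reads were recovered as the whole numbers that, with a library total and a gene length up to 300000 bases, give each FPKM at a relative tolerance of 1e-12. All values above 0 came out whole. The inferred library totals were 34783047 (Jurkat), 32149319 (EL4), 28345951 (TALL104) and 25286728 (IVA12). Those of TALL104 and IVA12 are below the minimum sequencing depth that the study states. The inferred totals need not equal the reads sequenced, so they do not show that this minimum was missed. The units are called reads here, and whether they are single reads or read pairs is not given in the sources used here. The length matched the annotated exons for 22.2% of the human and 73.0% of the mouse genes, and others may have more reads by a whole factor, which would narrow their intervals. Levels have exact Poisson intervals at 95%, and ratios of reads exact binomial ones. The calculation was checked on simulated data in which every gene had its annotated length, so genes with another length were not covered by the check. Python 3.11.15, NumPy 2.4.6, pandas 2.3.3, SciPy 1.17.1 and matplotlib 3.10.9 were used. Positions came from GENCODE release 44 mapped to hg19 and release M21 on mm10.

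With 1 library per line no model or test was fitted. The genes, lists and thresholds were chosen with earlier results of these data known. Named were the 8 genes, each list gene with at least 10 FPKM in either line of its species, and the 5 genes nearest TXNIP by Euclidean distance; Arrb1, ARRDC1-AS1, Gm15441 and SLC2A14 outside this rule were named for their relation to the 8 genes, and Pax5, Cd79a and Cd7 for their low levels, after these were seen. The alternatives were pseudocounts of 0.1 and 0.01, scaling by the median ratio or to own-species totals without mitochondrially encoded genes, reads scaled to own-species totals, a 2-fold threshold, and minimums of 0 FPKM or of 1 FPKM in both lines.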

Additional observations from a re-analysis of the deposited data

Results flagged for a closer look

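Reads on the 8 genes in libraries of the other species lie outside the comparisons, and 9 of 32 such values were above 3 reads, the limit that a count of 0 allows, while 11 were at 0. Human TXNIP had 12 reads in EL4 and 24 in IVA12. Human SLC2A3 had 9 reads in IVA12, ARRDC3 had 5 in IVA12, MLXIP had 4 in EL4, and SLC2A1 had 4 in EL4 and 4 in IVA12. Mouse Slc2a3 had 4 reads in Jurkat and 8 in TALL104. No library serves as a control for these reads, and their source was not tested. For human TXNIP they bear on the Jurkat level of 39 reads, and against 41487 reads in TALL104 they are few.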

How the results depend on the processing

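No paired analysis was possible because each line has 1 library, and for the same reason no library could be left out. Of 8 alternatives, 5 recompute ratios and gave 75 ratios of the 8 genes. Of these, 52 stayed within the ratios formed by opposite ends of the Poisson intervals of both lines, a band wider than the 95% interval of the ratio, 23 left it, among them 5 of the 10 of TXNIP, and 0 changed direction. The log2 ratio of TXNIP in the human pair, -8.27, was -9.95 with a pseudocount of 0.1, -10.30 with 0.01 and -9.44 on reads scaled to own-species totals. In the mouse pair, -3.45 became -3.60 and -3.61 with these pseudocounts. A larger size at a smaller pseudocount follows from how the ratio is built. The counts of genes past 1.5-fold, 7 human and 3 mouse, became 5 and 2 at 2-fold. Where both lines had to reach 1 FPKM, they became 5 and 3. That minimum left out human TXNIP, at 0.309 FPKM in Jurkat, and ARRDC4, at 0.454 FPKM in TALL104. The shares of tested genes past the threshold moved by more than 1.5-fold in 8 of 32 recomputed values: at 2-fold they were 22.5% toward Jurkat, 18.6% toward TALL104, 15.3% toward EL4 and 16.4% toward IVA12, and with no filter 13.8%, 11.4%, 9.75% and 11.2%.

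Depth limits the low genes. TXNIP in Jurkat rests on 39 reads, ARRDC4 on 178 and 53, and Arrdc4 on 0. Differences between cultures of a line cannot be estimated, and levels of messenger RNA say nothing of glucose uptake or of the proteins.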
